A study of Rattus norvegicus with 33 samples.

Results

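The plasma miRNA profile of thioacetamide-treated rats at 12 h and 24 h after dosing was described from 120 mature miRNAs. They were chosen as those with at least 20 reads in at least 1 of 3 libraries, namely the vehicle, 12 h and 24 h libraries of the thioacetamide (TAA) model. The TAA table lists 332 miRNAs, of which 296 had at least 1 read in these libraries, and 462 are listed in any of the 6 tables of the series. The members hold 98.7% of vehicle reads, 99.9% of 12 h reads and 99.8% of 24 h reads.

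The series sequenced small RNA from the plasma of rats given 1 of 6 liver toxicants. Animals were male Sprague-Dawley rats aged 6 weeks on delivery, with 5 rats per group. The TAA groups received TAA at 100 mg/kg into the stomach in 0.5% carboxymethylcellulose, and their vehicle group received carboxymethylcellulose with no TAA. The vehicle group carries a time label of 0 h, so time after dosing is not matched between vehicle and treated rats. All these rats were of the same strain and carried no genetic change, and plasma was made from EDTA blood of the descending aorta. The acetaminophen groups set beside TAA below received 1500 mg/kg. Each group has 1 library in the table, and the sources used here do not give whether it came from 1 rat or from pooled plasma. The α-naphthylisothiocyanate vehicle group has more than 1 labelled sample but 1 column, which was used as 1 library. Differences below therefore compare libraries, have no replicate error and carry no p-value.

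TAA is oxidised in the liver to reactive products that kill hepatocytes, mainly around the central veins. Liver cells contain very large amounts of a few miRNAs, above all miR-122, and dying cells release them into blood, where they are protected by proteins and vesicles. Plasma also contains miRNAs of red cells, platelets, white cells, gut, muscle and vessels, and a miRNA pairs with its target mRNAs mainly through its seed. In plasma, more copies of one miRNA and fewer copies of all others cannot be told apart from read shares, and a drop in a cell type's miRNAs does not separate fewer cells from less release per cell.

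The mature sequences below carry the main differences, with the seed (bases 2 to 8) in capitals. They are rat sequences from RefSeq (GRCr8), which held 105 of the 120 members. The first set holds the liver-associated miRNAs and miR-215, which has the seed of miR-192-5p.
miR-122-5p: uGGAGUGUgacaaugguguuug
miR-122-3p: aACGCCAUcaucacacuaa
miR-192-5p: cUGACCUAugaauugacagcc
miR-215: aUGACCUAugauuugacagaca
miR-194-5p: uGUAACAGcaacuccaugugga
miR-148a-3p: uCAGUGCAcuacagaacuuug
The second set holds miRNAs that were highest at 24 h, with miR-101a-3p beside miR-101b-3p and miR-3559-3p as the other arm of the hairpin of miR-3559-5p.
miR-101b-3p: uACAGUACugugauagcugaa
miR-101a-3p: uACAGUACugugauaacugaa
miR-3559-5p: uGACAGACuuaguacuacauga
miR-3559-3p: aUGUAGUAcugagucugucgug
miR-152-3p: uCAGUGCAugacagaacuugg
miR-340-5p: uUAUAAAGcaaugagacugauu
The third set holds pairs with a common seed that differed in direction or size, and the muscle pair that was lower at both times.
miR-23a-3p: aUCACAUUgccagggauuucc
miR-23b-3p: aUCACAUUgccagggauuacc
miR-27a-3p: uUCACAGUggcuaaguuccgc
miR-27b-3p: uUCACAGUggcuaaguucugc
let-7a-5p: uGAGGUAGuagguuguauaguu
let-7g-5p: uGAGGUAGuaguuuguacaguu
miR-26a-5p: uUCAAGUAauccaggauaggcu
miR-26b-5p: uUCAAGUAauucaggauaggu
miR-1-3p: uGGAAUGUaaagaaguguguau
miR-206-3p: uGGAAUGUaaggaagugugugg

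The libraries held 33064 (vehicle), 188706 (12 h) and 383330 miRNA reads (24 h). A miRNA with 0 reads may have had up to 3, which allows a share of up to 0.00907% in vehicle, 0.00159% at 12 h and 0.000783% at 24 h. Of the members, 73 reached 20 reads in vehicle, 69 at 12 h and 105 at 24 h. The 24 h library alone brought in 32 members and the vehicle library alone 13, so the choice of members itself favours miRNAs that are high in one of these libraries. Higher calls at 24 h among the 32 and lower calls among the 13 follow in part from this choice, also in the lists below. Just inside the minimum were miR-93-5p with 20 reads and miR-185-5p, miR-466c-5p and miR-664-3p with 22 reads in their highest library. Just outside, with 19 reads, were miR-140-5p, miR-125b-2-3p, miR-145-5p, miR-1843b-5p, miR-1b, miR-126a-5p and miR-378b.

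Read shares showed a change of the leading miRNAs over the day. In vehicle plasma miR-148a-3p, a miRNA of liver and many other tissues, made up 35.8% of reads, miR-140-3p, known from cartilage and found in plasma, 15.8%, and the red cell miRNA miR-486 4.46%. At 12 h miR-122-5p made up 54.7%, miR-148a-3p 22.8% and miR-192-5p 11.3%. At 24 h miR-192-5p led with 25.8%, followed by miR-148a-3p with 25.6% and miR-122-5p with 22.9%. The 3 leading miRNAs took 56.0% of reads in vehicle, 88.7% at 12 h and 74.3% at 24 h, so the read space left for all others was smallest at 12 h.

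**Figure D1:**
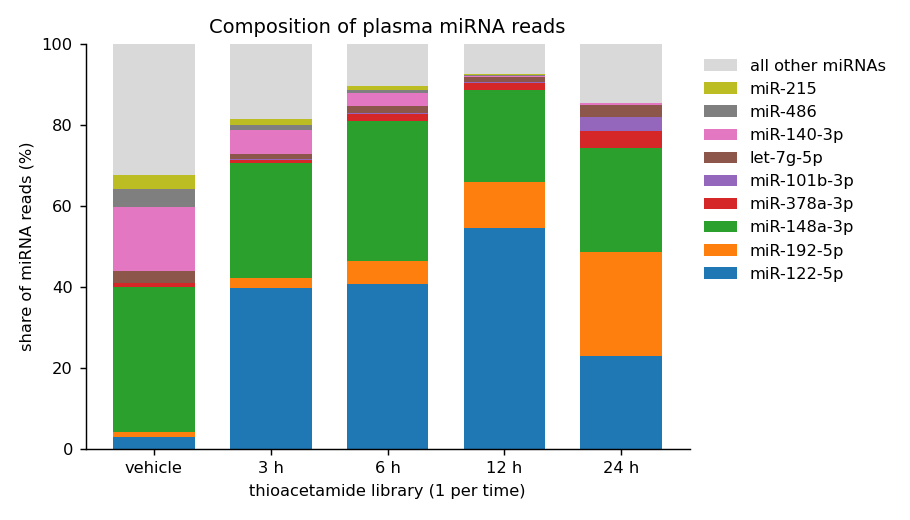
Share of miRNA reads (%) taken by 9 miRNAs and by all others in the 5 TAA libraries, 1 library per bar. miR-122-5p (blue) grows from 2.80% in vehicle to 54.7% at 12 h and is at 22.9% at 24 h, while miR-192-5p (orange) grows to 25.8% at 24 h.

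Ratios were computed from counts scaled by TMM, which assumes that most miRNAs do not move, and members were called higher or lower when the ratio reached 2 or fell to 0.5 and its exact 95% counting interval excluded 1. At 12 h, 31 members were higher than in vehicle (25.8% of 120) and 37 lower (30.8%). At 24 h, 54 were higher (45.0%) and 41 lower (34.2%). Only 52 members at 12 h and 25 at 24 h were called neither way, so these calls do not meet the assumption that most miRNAs do not move. Between the late libraries, 36 were higher at 24 h than at 12 h (30.0%) and 25 lower (20.8%). With total counts in place of TMM, every ratio to vehicle falls, by 4.66 times at 12 h and 3.53 times at 24 h, and the calls become 5 higher (4.17%) and 78 lower (65.0%) at 12 h and 22 higher (18.3%) and 63 lower (52.5%) at 24 h. For 24 h against 12 h total counts give 52 higher (43.3%) and 19 lower (15.8%). DESeq2 size factors give 38 higher and 30 lower at 12 h, and the authors' normalized signal 40 and 31. Since total counts lower every ratio to vehicle alike, no lower call can be lost this way. Of the higher calls, 5 of 31 at 12 h and 22 of 54 at 24 h held with both. The median member stood at a log2 ratio of −0.08 at 12 h and 0.49 at 24 h with TMM, and at −2.30 and −1.33 with total counts.

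The direction was also set against the vehicle libraries of the acetaminophen (APAP), α-naphthylisothiocyanate (ANIT), 4,4'-methylenedianiline (MDA) and shared carbon tetrachloride and dexamethasone (CCl4/DEX) models, with 1 TMM over all 29 libraries. Between the TAA vehicle library and the other 4, the same rule called 17.5% to 22.5% of members. Between pairs of those 4 it called 2.5% to 22.5%, with a median of 8.33%. Of the members called against the TAA vehicle, 21 of 31 higher and 15 of 37 lower at 12 h had the same call against all 5 vehicle libraries. At 24 h, 45 of 54 higher and 33 of 41 lower did so. The 5 include the TAA vehicle library that gave the calls, so only the other 4 are a further comparison. All 5 ratios at a time also share the same treated library. Over all members, the calls against all 5 were 22 higher (18.3%) and 15 lower (12.5%) at 12 h, and 46 higher (38.3%) and 33 lower (27.5%) at 24 h.

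**Figure D2:**
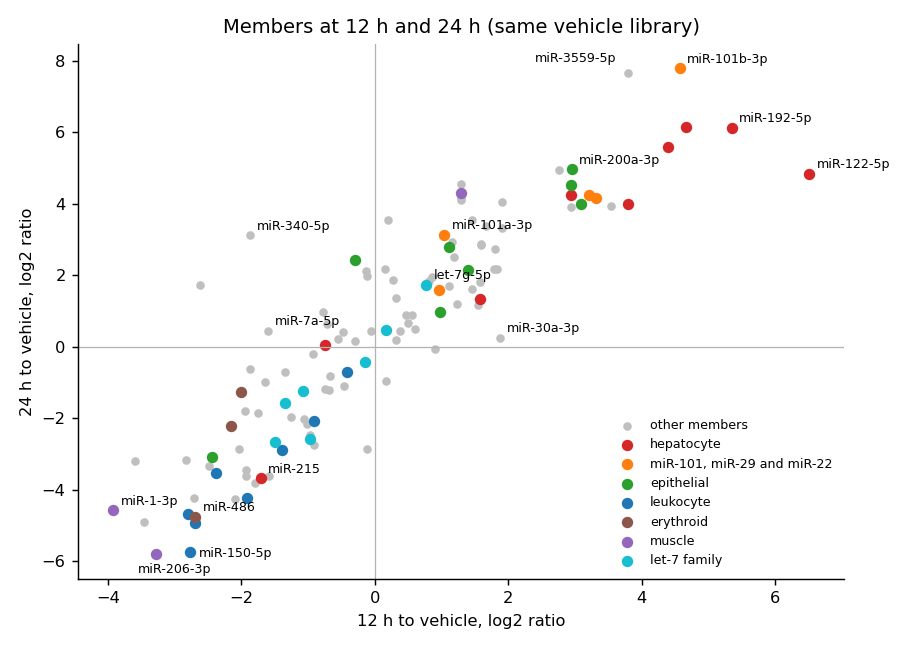
Log2 ratio to the TAA vehicle library at 12 h (x axis) and 24 h (y axis) for the 120 members, TMM-scaled counts with 0.5 read added, 1 library per time. Both axes share the vehicle library, so the diagonal shape is no evidence of likeness. miR-122-5p is the point farthest to the right, at 6.51, and miR-101b-3p the highest, at 7.80. With total counts all points move left by 2.22 and down by 1.82.

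Of 9 hepatocyte-associated members, 7 were higher with TMM in each late library, beside 25.8% of all members at 12 h and 45.0% at 24 h. Of these, miR-122-3p and miR-192-3p reached the read minimum at 24 h alone, so their 24 h calls follow in part from how members were chosen. miR-122-5p, the most abundant hepatocyte miRNA, had 927 reads in vehicle, 34129 at 3 h, 39176 at 6 h, 103130 at 12 h and 87631 at 24 h. It was 90.9-fold higher than vehicle at 12 h (95% counting interval 85.2 to 97.1) and 28.7-fold higher at 24 h (26.9 to 30.7). With total counts miR-122-5p stood at log2 ratios of 4.28 at 12 h and 3.03 at 24 h, against 6.51 and 4.84 with TMM. From 12 h to 24 h it was 3.16-fold lower (3.13 to 3.19), and 2.39-fold lower with total counts. It was the single member called higher at both times and lower at 24 h than at 12 h. Both late libraries exceeded every one of the 5 vehicle libraries, in which miR-122-5p took 0.647% to 3.34% of reads.

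miR-192-5p, made in liver, gut and kidney, had 427 reads in vehicle, 2151 at 3 h, 5526 at 6 h, 21244 at 12 h and 99007 at 24 h. Its ratio to vehicle was 40.6 (36.9 to 44.8) at 12 h and 70.5 (64.1 to 77.7) at 24 h. The 24 h value was 1.74-fold the 12 h value (1.71 to 1.76), below the ratio of 2 with TMM and 2.29-fold with total counts. The number of miR-122-5p reads per miR-192-5p read needs no scaling, and it was 2.17 in vehicle, 15.9 at 3 h, 7.09 at 6 h, 4.85 at 12 h and 0.885 at 24 h. In the 5 vehicle libraries this quotient ran from 0.723 to 7.51, so the 12 h and 24 h values lie inside the range without treatment and the 3 h value above it.

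miR-194-5p, encoded beside miR-192, had 16, 424 and 2605 reads in vehicle, 12 h and 24 h. It was 21.6-fold (13.2 to 38.2) and 49.5-fold (30.4 to 86.8) higher than vehicle. miR-148a-3p had 11825, 43069 and 98086 reads, and was 2.98-fold (2.92 to 3.04) and 2.52-fold (2.47 to 2.57) higher with TMM, whereas total counts put it below vehicle at 0.638 and 0.715 of the vehicle share. The passenger arms appeared as well. miR-122-3p had 0, 15 and 117 reads, at least 4.08-fold and at least 11.9-fold higher. miR-192-3p had 0, 8 and 26 reads, at least 2.18-fold and at least 2.64-fold higher, and miR-148a-5p had 2, 23 and 156.

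The 9 hepatocyte-associated members come from a list of 15, and beside the 7 that were higher 1 was lower at each late time. With total counts 3 were higher and 2 lower at 12 h, and 5 higher and 2 lower at 24 h. Their median log2 ratio was 3.80 at 12 h and 4.25 at 24 h, or 2.03 and 3.57 with the members at 0 reads in vehicle set to their bound, beside −0.08 and 0.49 over all members. Together they took 43.4% of vehicle reads, 89.2% at 12 h and 75.1% at 24 h. The lower member was miR-215, and miR-455-3p was called neither way with TMM. miR-802-5p, another liver miRNA, was no member, with 0, 1 and 17 reads.

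miR-101b-3p showed the largest late difference that rests on many reads. This miRNA, whose targets in human cells include the chromatin enzyme EZH2, had 18 reads in vehicle, 74 at 3 h, 200 at 6 h, 536 at 12 h and 13517 at 24 h. It was 24.3-fold higher than vehicle at 12 h (15.2 to 41.4) and 228-fold higher at 24 h (144 to 385), and 9.39-fold higher at 24 h than at 12 h (8.61 to 10.3). With total counts these ratios were 5.22, 64.8 and 12.4, all still called higher. Its share reached 3.53% at 24 h against 0.0544% to 0.0837% in the 5 vehicle libraries. Per miR-122-5p read, there were 0.0194 miR-101b-3p reads in vehicle, 0.0052 at 12 h and 0.154 at 24 h, and the 5 vehicle libraries ran from 0.0190 to 0.129. The 12 h value lies below that range and the 24 h value above it.

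miR-101a-3p differs from miR-101b-3p by 1 base outside the seed and moved less. It had 16, 41 and 477 reads, a ratio of 2.09 (1.15 to 4.00) at 12 h and 9.07 (5.53 to 16.0) at 24 h, and the 12 h direction turned with total counts (0.449). The sources used here do not give how many mismatches the authors' counting allowed, so reads of such near-identical miRNAs may be split between them. There were 1.12 miR-101b-3p reads per miR-101a-3p read in vehicle, 13.1 at 12 h and 28.3 at 24 h, against 1.08 to 1.80 in the 5 vehicle libraries.

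The other miRNAs of the miR-101, miR-29 and miR-22 list were also higher at 24 h. miR-22-3p, present in liver and heart, had 86, 980 and 5454 reads and was 9.31-fold (7.46 to 11.7) and 19.3-fold (15.6 to 24.2) higher. miR-22-5p was 11.0-fold and 20.2-fold higher, from 4 reads in vehicle. miR-29a-3p, which targets collagen mRNAs, was called at 24 h, at 3.04-fold (2.28 to 4.12), and not at 12 h, at 1.95-fold. In all, 4 of 5 members were higher at 12 h and 5 of 5 at 24 h with TMM, beside 25.8% and 45.0% of all members. With total counts 1 was higher and 2 lower at 12 h, and 4 higher and none lower at 24 h.

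miR-3559-5p, whose function is little described, had 1 read in vehicle, 9 at 3 h, 28 at 6 h, 25 at 12 h and 1008 at 24 h. Its ratio of 307 to vehicle at 24 h has an interval of 54.9 to 12120 because the vehicle count is 1. The comparison of 24 h with 12 h rests on more reads and gave 15.0-fold (10.1 to 23.3). The other arm, miR-3559-3p, had 7, 106 and 376 reads, with 12.4-fold and 16.3-fold over vehicle and 1.32-fold from 12 h to 24 h. The 5p arm thus made up 19.1% of the hairpin's reads at 12 h (exact Clopper-Pearson 95% interval 12.7 to 26.9) and 72.8% at 24 h (70.4 to 75.2).

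**Figure D3:**
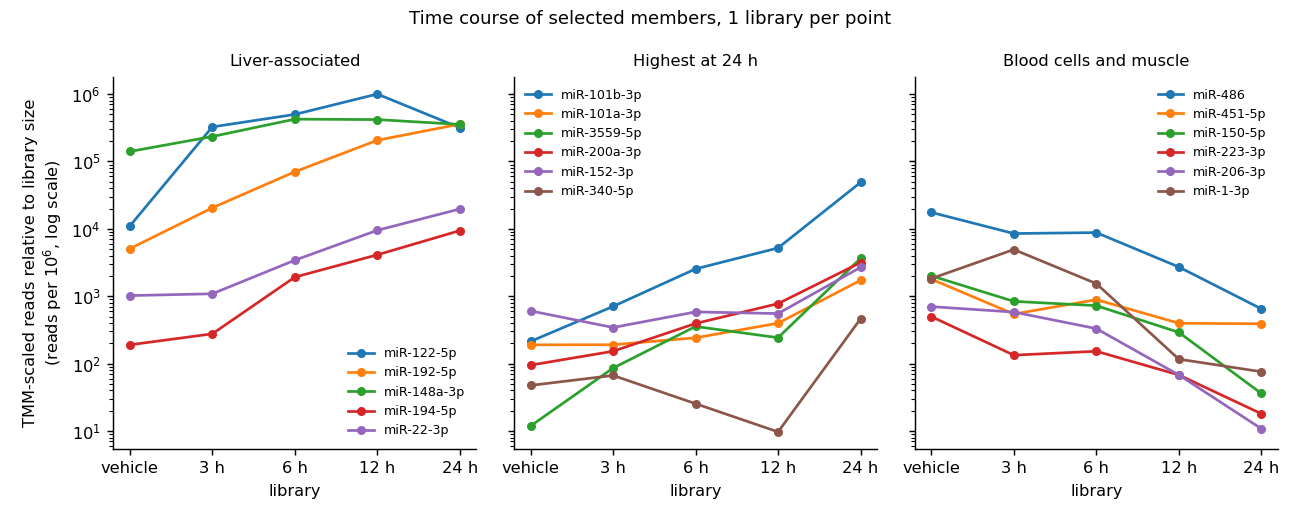
TMM-scaled reads (log scale, relative to library size) in the vehicle, 3, 6, 12 and 24 h libraries for liver-associated miRNAs (left), miRNAs highest at 24 h (middle) and blood cell and muscle miRNAs (right), 1 library per point. Scaled values are relative, since TMM enlarges values in libraries dominated by a few miRNAs. miR-122-5p peaks at 12 h and miR-101b-3p has its steepest step between 12 h and 24 h, while miR-486 and miR-150-5p are lowest at 24 h.

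A group of 18 members was called neither way at 12 h and higher at 24 h against both vehicle and 12 h. miR-152-3p, which has the seed of miR-148a-3p, had 51, 57 and 743 reads, and was 4.43-fold above vehicle (3.33 to 6.01) and 4.85-fold above 12 h (3.70 to 6.47). miR-340-5p had 4, 1 and 128 reads, and was 9.73-fold above vehicle (3.71 to 36.3) and 47.7-fold above 12 h (8.40 to 1897). The single 12 h read came from a library deeper than vehicle. With total counts miR-193a-3p, miR-340-5p and miR-505-3p alone of the 18 were higher than vehicle. In 15 of the 18 the read minimum was reached at 24 h and in neither other library, so their higher level there follows in part from how members were chosen.

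Further late members were rare outside the 24 h library. miR-193a-3p had 2, 3 and 95 reads, 11.8-fold above 12 h (3.91 to 58.2). let-7g-3p had 0, 1 and 38 reads, miR-499-5p, encoded in a myosin gene, 0, 1 and 32, miR-31a-5p 0, 1 and 29, and miR-107-3p 0, 1 and 28. Against vehicle they were at least 3.85-fold, 3.24-fold, 2.94-fold and 2.84-fold higher. miR-20a-5p of the miR-17/92 cluster had 7, 8 and 98 reads and miR-103-3p 5, 7 and 82. With 1 TMM over all libraries, the 24 h log2 ratio of miR-103-3p ran from 2.36 against the TAA vehicle to −0.96 against the CCl4/DEX vehicle.

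Epithelial miRNAs were mostly higher with TMM, led by the miR-200 family, which holds epithelial cells in that state. miR-200a-3p had 8, 80 and 874 reads, 8.17-fold (3.95 to 19.6) and 33.2-fold (16.8 to 77.2) above vehicle. miR-200b-3p had 2, 23 and 190 reads, with 28.9-fold at 24 h (7.89 to 240), and miR-182 had 23, 244 and 1227, with 16.2-fold (10.8 to 25.7). miR-203a-3p, a skin miRNA, was lower, with 55, 12 and 21 reads and 8.61-fold lower at 24 h (5.12 to 15.0). It took 0.166% of TAA vehicle reads and 0.0399% to 0.0870% in the other vehicle libraries. With 1 TMM over all libraries, its 24 h log2 ratio ran from −2.92 against the TAA vehicle to −0.82 against the MDA vehicle. At neither time was it called lower against all 5 vehicle libraries. Over all members, 25.8% were higher and 30.8% lower at 12 h, and 45.0% and 34.2% at 24 h. miR-203b-3p and miR-429 reached the read minimum at 24 h alone, so their higher 24 h calls follow in part from how members were chosen. Of the 8 epithelial members, 5 were higher and 1 lower at 12 h, and 7 higher and 1 lower at 24 h. With total counts none was higher and 2 lower at 12 h, and 3 higher and 1 lower at 24 h, so the 12 h median turns from 1.25 to −0.97.

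The miR-30 family was split by arm and time. miR-30a-5p had 380, 1064 and 7205 reads, 2.29-fold (2.03 to 2.58) and 5.77-fold (5.20 to 6.41) above vehicle, and with total counts the 12 h value was lower (0.491). Its other arm miR-30a-3p had 49, 222 and 194 reads, 3.70-fold above vehicle at 12 h (2.71 to 5.15), 1.20-fold at 24 h and 3.07-fold lower at 24 h than at 12 h (2.52 to 3.75). miR-30b-5p had 9, 78 and 970 reads and was 32.8-fold higher at 24 h (17.2 to 71.9). With 1 TMM over all libraries, its 24 h log2 ratio ran from 5.12 against the TAA vehicle to 2.91 against the CCl4/DEX vehicle. Over all members, 25.8% were higher at 12 h and 45.0% at 24 h. Of the 7 miR-30 members, 4 were higher at each time with TMM and none lower, so the 24 h count is near the share of all members. With total counts none was higher and 4 lower at 12 h, and 1 higher and 3 lower at 24 h.

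Both arms of 14 hairpins were members. They had the same call in 13 hairpins at 12 h and 9 at 24 h, and in 4 for 24 h against 12 h. None of the hairpins had arms called in opposite directions against vehicle. Between 12 h and 24 h, miR-122 (5p lower, 3p higher) and miR-30a (5p higher, 3p lower) did. The 5p share of miR-30e was 24.3% in vehicle, 23.8% at 12 h and 56.9% at 24 h (52.8 to 61.0), and that of let-7d was 42.6%, 20.8% and 7.04% (3.90 to 11.5).

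Among miRNAs abundant in plasma, miR-378a-3p, encoded within PPARGC1B in human and mouse, had 322, 3021 and 15998 reads. It was 7.66-fold (6.83 to 8.62) and 15.1-fold (13.5 to 16.9) above vehicle. miR-21-5p, a widely expressed miRNA raised in many injuries, had 167, 648 and 5705 reads, 3.17-fold (2.67 to 3.78) and 10.4-fold (8.91 to 12.2) higher. At 12 h it was called higher against 2 of the 5 vehicle libraries, and at 24 h against all 5. With 1 TMM over all libraries, its 24 h log2 ratio ran from 3.54 against the TAA vehicle to 1.43 against the CCl4/DEX vehicle. miR-140-3p went the other way, with 5217, 895 and 1935 reads, 7.14-fold (6.65 to 7.67) and 8.87-fold (8.41 to 9.35) lower. With 1 TMM over all libraries, the miR-140-3p log2 ratio ran from −2.53 against the TAA vehicle to −1.25 against the MDA vehicle at 12 h. At 24 h it ran from −2.98 to −1.70 against the same libraries. Also on this list, miR-103-3p and miR-107-3p reached the read minimum at 24 h alone, so their higher 24 h calls follow in part from how members were chosen. Over all members, 25.8% were higher and 30.8% lower at 12 h, and 45.0% and 34.2% at 24 h. Of the 9 members on this list, 6 were higher and 1 lower at 12 h and 8 higher and 1 lower at 24 h. With total counts it was 1 and 2 at 12 h and 5 and 1 at 24 h.

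The 3 erythroid members were lower at both times, also against each of the 5 vehicle libraries. Over all members, 30.8% were lower at 12 h and 34.2% at 24 h, and 12.5% and 27.5% against all 5. miR-486, enriched in red cells, had 1476, 280 and 180 reads, and was 6.45-fold (5.68 to 7.36) and 27.0-fold (23.1 to 31.7) lower than vehicle. miR-451-5p, a red cell miRNA that is processed without Dicer, had 151, 41 and 108 reads, and was 4.51-fold and 4.60-fold lower. The third erythroid member, miR-16-5p, had 24, 7 and 33 reads and was 4.20-fold and 2.39-fold lower. The summed share of these 3 was 4.99% in vehicle, 0.174% at 12 h and 0.0837% at 24 h, against 3.15% to 6.58% in the 5 vehicle libraries.

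miR-150-5p, a lymphocyte miRNA, had 169, 30 and 10 reads, 6.90-fold (4.66 to 10.5) and 55.6-fold (29.5 to 118) lower. miR-223-3p, of neutrophils and platelets, had 42, 7 and 5 reads, 7.35-fold (3.27 to 19.4) and 27.6-fold (10.9 to 89.5) lower. miR-181b-5p had 60, 11 and 6 reads and miR-181a-5p 179, 58 and 31. Of 8 leukocyte members, 6 were lower at 12 h and 7 at 24 h, beside 30.8% and 34.2% of all members, and none was higher. Against all 5 vehicle libraries 2 of the 8 were lower at 12 h, miR-150-5p and miR-223-3p, and 6 at 24 h. At 12 h the log2 ratio of miR-181b-5p ran from −2.38 against the TAA vehicle to −0.46 against the CCl4/DEX vehicle. That of miR-342-3p ran from −2.07 against the TAA vehicle to 1.08 against the MDA vehicle. Their summed share was 2.30% in vehicle, 0.140% at 12 h and 0.0629% at 24 h, against 1.35% to 2.30% in the 5 vehicle libraries.

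Muscle miRNAs were lower except for miR-499-5p, which reached the read minimum at 24 h alone. miR-206-3p, of skeletal muscle, had 59, 7 and 3 reads, and miR-1-3p, of skeletal and heart muscle, 154, 12 and 21. They were 10.3-fold (4.71 to 26.8) and 15.7-fold (8.74 to 31.1) lower at 12 h, and 64.7-fold (21.1 to 323) and 24.1-fold (15.2 to 40.1) lower at 24 h. The TAA vehicle library was itself high in muscle miRNAs, at 0.644% of reads against 0.132% to 0.353% in the other 4. miR-206-3p was called lower against all 5 vehicle libraries at 24 h and against 2 at 12 h, and miR-1-3p against all 5 at both times, by less than against the TAA vehicle. With 1 TMM over all libraries, the log2 ratio of miR-206-3p ran from −2.97 against the TAA vehicle to −0.24 against the MDA vehicle at 12 h, and from −5.64 to −2.91 at 24 h. That of miR-1-3p ran from −3.61 against the TAA vehicle to −1.05 against the APAP vehicle at 12 h, and from −4.40 to −1.84 at 24 h. The sizes printed against the TAA vehicle are thus the largest of the 5 for both miRNAs.

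Vessel and connective tissue miRNAs were divided. Of 8 platelet and endothelial members, 1 was higher, 4 lower and 3 neither at each late time, beside 30.8% and 34.2% lower over all members. miR-126a-3p, of endothelial cells, had 173, 55 and 52 reads and its 24 h level was 10.9-fold below vehicle (7.98 to 15.2). Of 4 smooth muscle and mesenchymal members, 3 were lower at each time, beside the same shares of all members, and miR-152-3p was higher at 24 h. miR-199a-3p had 88, 16 and 15 reads, 19.3-fold lower at 24 h (11.1 to 35.9), and miR-143-3p had 628, 322 and 531, 3.89-fold lower. Of 6 members of the miR-17/92 and miR-106b/25 clusters, 2 were lower at 12 h, a share near that of all members, and 4 were lower and 1 higher at 24 h. The higher member, miR-20a-5p, reached the read minimum at 24 h alone. Of 4 members of the miR-99/100 and miR-125 group, 1 was higher and 2 lower at each time, with miR-99a-5p higher (331, 1213 and 3879 reads) and miR-99b-5p lower (40, 4 and 4 reads). With total counts none of the members in these groups was higher at either time, except miR-27b-3p at 24 h.

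The let-7 family, which restrains growth genes, shares 1 seed and did not move as a unit. At 24 h let-7g-5p was 3.35-fold higher (3.14 to 3.58), from 1003 reads in vehicle, 2095 at 12 h and 11044 at 24 h. let-7b-5p was 6.32-fold lower (4.76 to 8.45), with 146, 63 and 76 reads, and let-7a-5p 2.95-fold lower (2.25 to 3.87), with 106, 51 and 118. With total counts let-7g-5p was not called at 24 h and was lower at 12 h. Of 7 members, none was higher and 3 were lower at 12 h, and 1 was higher and 4 lower at 24 h. Over all members, 25.8% were higher and 30.8% lower at 12 h, and 45.0% and 34.2% at 24 h. The family took 9.22% of TAA vehicle reads and 14.4% to 19.2% of the reads in the other 4 vehicle libraries, then 1.99% at 12 h and 3.95% at 24 h.

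Members that share a seed went apart in several pairs. Of the 105 members with a sequence, 39 fell into 16 shared seeds. Quotients of reads within a library do not depend on the scaling, and 17 such pairs were computed after values had been seen. miR-192-5p and miR-215 differ at 3 bases, and there were 0.379 miR-192-5p reads per miR-215 read in vehicle, 50.5 at 12 h and 340 at 24 h (303 to 383). In the 5 vehicle libraries this was 0.178 to 0.379. miR-215, found in gut and kidney, had 1126, 421 and 291 reads and at 24 h stood 12.7-fold below vehicle (11.2 to 14.5).

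miR-23a-3p and miR-23b-3p differ at 1 base, as do miR-27a-3p and miR-27b-3p. Their genes lie in separate clusters of GRCr8, Mir23a with Mir27a and Mir24-2 on chromosome 19 and Mir23b with Mir27b and Mir24-1 on chromosome 17. Per miR-23a-3p read there were 0.0734 miR-23b-3p reads in vehicle, 0.398 at 12 h and 1.02 at 24 h (0.823 to 1.27), against 0.0625 to 0.0773 in the 5 vehicle libraries. Per miR-27a-3p read there were 0.837 miR-27b-3p reads in vehicle, 5.88 at 12 h and 12.7 at 24 h (11.3 to 14.3), against 0.837 to 3.63. In both pairs the chromosome 17 member gained on the chromosome 19 member in each late library. miR-23a-3p itself had 518, 113 and 168 reads and at 24 h stood 10.1-fold below vehicle (8.50 to 12.1). miR-27b-3p had 164, 447 and 4113 and was 7.63-fold higher (6.52 to 8.97). miR-27b-3p was called higher at 12 h against 1 of the 5 vehicle libraries, and its 12 h direction turned with total counts.

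Genes within 10 kb of each other did not always give the same direction. Mir192 (1:212994209-212994318) and Mir194-2 (1:212994024-212994108) lie together, and both were higher. Mir215 (13:99382990-99383086) lies beside Mir194-1 (13:99382716-99382798), whose mature miR-194-5p cannot be told from that of Mir194-2, and miR-215 was lower. Mir182 and Mir183 on chromosome 4 both gave higher members. miR-20a-5p, miR-19b-3p and miR-92a-3p, which Mir20a, Mir19b1 and Mir92a1 on chromosome 15 encode, were higher, called neither way and lower at 24 h. The last pair is also encoded by Mir19b2 and Mir92a2 on chromosome X, and reads cannot be assigned to either locus. let-7g-5p and let-7a-5p share a seed and are not neighbours by this distance. Per let-7a-5p read there were 9.46 let-7g-5p reads in vehicle, 41.1 at 12 h and 93.6 at 24 h, against 6.03 to 10.2 in the 5 vehicle libraries.

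**Figure D4:**
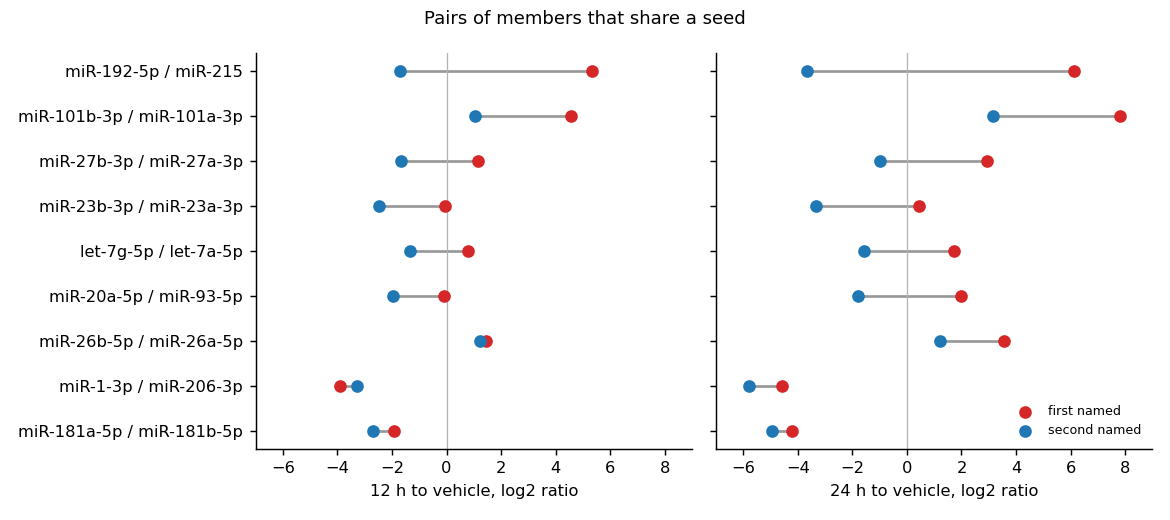
Log2 ratio to vehicle at 12 h (left) and 24 h (right) of 9 pairs of members with a common seed, the first named in red and the second in blue, TMM-scaled, 1 library per time. The distance within a pair does not depend on the scaling, but the position of 0 does: with total counts all points move left by 2.22 at 12 h and 1.82 at 24 h. At 24 h miR-192-5p stands at 6.14 and miR-215 at −3.67, while miR-1-3p and miR-206-3p stand at −4.56 and −5.80.

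The patterns over the 3 comparisons fell into a few groups. Higher at both times and higher again at 24 h than at 12 h were 15 members, among them miR-101b-3p, miR-194-5p, miR-200a-3p and miR-21-5p. Higher at both times without a call between them were 14, among them miR-192-5p, miR-148a-3p and miR-378a-3p. Lower at both times and lower again at 24 h were 17, among them miR-486, miR-150-5p, miR-215 and miR-206-3p, and 16 were lower at both times without a call between them. miR-30a-3p was called higher at 12 h alone against vehicle. miR-7a-5p, of endocrine cells, had 33, 13 and 151 reads, stood 3.11-fold below vehicle at 12 h (1.59 to 6.43) and 4.32-fold higher at 24 h than at 12 h (2.45 to 8.31). No member was called in opposite directions at 12 h and 24 h against vehicle, and 17 were never called.

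Among members lower at 24 h and called neither way at 12 h was miR-3473, with 182, 206 and 82 reads. It was 7.30-fold below vehicle at 24 h (5.59 to 9.59) and 6.75-fold below 12 h (5.20 to 8.83). Against the 5 vehicle libraries it was called higher at 12 h in 4 and lower at 24 h in all 5. miR-25-3p had 831, 521 and 499 reads and at 24 h stood 5.48-fold below vehicle (4.89 to 6.13). With 1 TMM over all libraries, its 24 h log2 ratio ran from −2.29 against the TAA vehicle to −0.55 against the MDA vehicle, and it was not called lower against all 5.

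**Figure D5:**
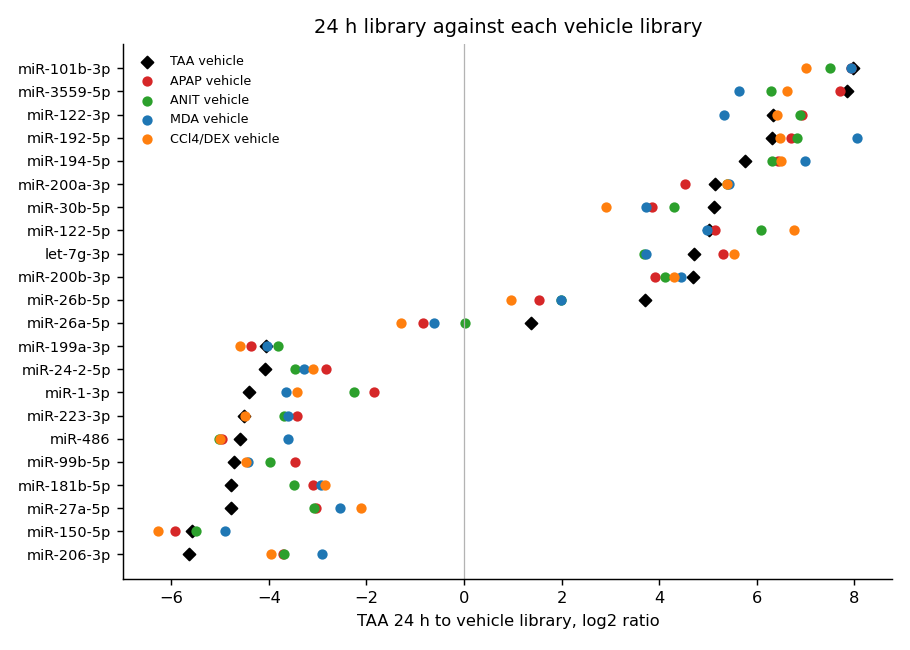
Log2 ratio of the TAA 24 h library to each of the 5 vehicle libraries (TMM over all libraries, 0.5 read added) for the 10 highest and 10 lowest called members and for miR-26a-5p and miR-26b-5p, 1 library per point. miR-101b-3p lies between 7.01 and 7.96 and miR-206-3p between −5.64 and −2.91, while miR-26a-5p lies on both sides of 0, from −1.30 to 1.37. Total counts move all points against the TAA vehicle to the left.

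APAP, another of the liver toxicants, was given at 1500 mg/kg and has its own vehicle library and the same times. The dose differs, so values are given side by side, with 1 TMM over all libraries. The 120 members were chosen by reads in TAA libraries alone, so a miRNA abundant only with APAP could not enter. Calls with APAP and their overlap with TAA therefore cover these TAA-chosen miRNAs and not the whole APAP response. How far this choice raises the shared percentages of the APAP calls was not tested. At 12 h, 38 members were higher with TAA and 27 with APAP (31.7% and 22.5% of 120), and 21 with both, which is 55.3% of the TAA and 77.8% of the APAP members. At 24 h, 55 and 49 were higher (45.8% and 40.8%), and 42 with both, 76.4% and 85.7%. Lower were 31 with TAA and 25 with APAP at 12 h (25.8% and 20.8%), 17 with both, and 40 and 36 at 24 h (33.3% and 30.0%), 28 with both. miR-122-5p stood at 113-fold with TAA and 115-fold with APAP at 12 h, and at 32.2-fold and 15.9-fold at 24 h. miR-101b-3p stood at 256-fold with TAA and 61.3-fold with APAP at 24 h, from 28 reads in the APAP vehicle. In both models the quotient of miR-122-5p to miR-192-5p reads was below 1 at 24 h, at 0.885 with TAA and 0.722 with APAP. The CCl4/DEX vehicle library stood at 0.723, so a quotient below 1 also occurred without treatment. miR-99b-5p was 29.3-fold lower with TAA at 24 h, and its APAP ratio was 1.36 (0.849 to 2.24). miR-21-5p was 11.7-fold higher with TAA at 24 h, and its APAP ratio was 1.84, below the ratio of 2. The vehicle share of miR-21-5p was 0.505% with TAA, the lowest of the 5 vehicle libraries, and 1.40% with APAP. At 24 h its shares were 1.49% and 1.03%. No test of these differences was possible with 1 library per group.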

How the data were processed

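Read counts per mature miRNA were used as deposited. The sources used here do not give the counter, the miRNA release or the genome build. Per the labels, RNA came from 200 µL of plasma and libraries were amplified with 15 PCR cycles, with no spike-in named, so concentrations are unknown. The normalized signal, which the authors made per library with DESeq 1.28.0 per the submitters' processing notes, served as an alternative. It covers 121 miRNAs of the TAA table. Counts were scaled by TMM (edgeR 4.0.16, R 4.3.3) over the 5 TAA libraries on 123 miRNAs that reached 20 reads in any of them. Comparisons with other models' libraries used 1 TMM over all 29 libraries on 160 miRNAs.

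Ratios have exact Clopper-Pearson 95% intervals, which cover counting error only. PCR reads carry no molecular identifiers. A member was called when its ratio reached 2 or fell to 0.5 and the interval excluded 1. For 0 reads, 3 reads gave a bound. Log2 ratios added 0.5 read. No p-value was computed, as each group has 1 library. The intervals were tested on simulated data. Named members are the 10 highest and 10 lowest called per comparison, the 13 lists, the 10 largest shares per library, arm pairs and members at the read minimum, and a few others chosen after their values were seen. Members, lists and alternatives were chosen with earlier results of these data known. The libraries held 33064 to 383330 reads. Alternatives were total counts, DESeq2 1.42.0 size factors, TMM over all libraries or all listed miRNAs, the authors' signal, other read minimums, a ratio of 4 and other vehicle libraries.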

Additional observations from a re-analysis of the deposited data

Results flagged for a closer look

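miR-26a-5p and miR-26b-5p went in opposite directions in the TAA and APAP models at 24 h, each against its own vehicle library and with 1 TMM over all libraries. miR-26a-5p stood at a log2 ratio of 1.37 with TAA and −2.16 with APAP. miR-26b-5p stood at 3.71 with TAA and −1.32 with APAP. By read share, without TMM, miR-26a-5p fell in both models from vehicle to 24 h. Its share went from 0.956% to 0.624% with TAA and from 4.71% to 0.420% with APAP, so its opposite directions depend on the scaling. The miR-26b-5p share rose from 0.0484% to 0.165% with TAA and fell from 0.238% to 0.0379% with APAP. The difference was not tested, since each group has 1 library. The TAA vehicle library had 316 miR-26a-5p reads, 0.956% of its total, while the other 4 vehicle libraries held 2.34% to 4.71%. Against the 5 vehicle libraries, miR-26a-5p at 24 h was called higher against 1 and lower against 1. miR-26b-5p took 0.0484% of TAA vehicle reads and 0.159% to 0.259% in the other 4. It was called higher at 24 h against 4 of the 5, with a log2 ratio of 3.71 against the TAA vehicle and 0.97 to 1.98 against the other 4. The part of the TAA vehicle library in both results was not tested further.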

How the results depend on the processing

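Total counts in place of TMM gave 5 higher and 78 lower members at 12 h, and 22 higher and 63 lower at 24 h. A ratio of 4 gave 16 higher and 20 lower at 12 h, and 20 higher and 8 lower for 24 h against 12 h. At 12 h, 21 members were lower than in the MDA vehicle library and 15 lower than in each of the 5 vehicle libraries. Without a read minimum 73 miRNAs were lower at 24 h. With total counts and other vehicle libraries the cause was not tested, while the stricter ratio and the absent minimum change the count by construction. All other counts stayed within 1.5 times the reported one, among them those of TMM over all listed miRNAs, an alternative chosen after seeing the data (35 higher and 32 lower at 12 h).

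Among the 20 members named for each comparison by size, no alternative reversed a direction. These are the most extreme calls, and other read minimums and the ratio of 4 leave their ratios unchanged. The result therefore says little about the other members. Of the values recomputed for these named members, 221 of 234 at 12 h, 231 of 233 at 24 h and 143 of 145 for 24 h against 12 h also stayed on the same side of the rule. With total counts miR-122-3p, miR-192-3p, miR-22-3p, miR-22-5p and miR-3559-5p lost the 12 h call and let-7g-3p the 24 h call. Against other vehicle libraries the 12 h call was lost by miR-181b-5p (APAP, MDA, CCl4/DEX), miR-206-3p (APAP, ANIT, MDA), miR-218a-5p (ANIT) and miR-192-3p (MDA), and the 24 h call by miR-27a-5p (MDA). With a ratio of 4, miR-10a-5p and miR-215 lost the call for 24 h against 12 h. Over all called members, total counts reversed 4 of the 31 higher calls at 12 h (miR-101a-3p, miR-27b-3p, miR-30a-5p and miR-375-3p). miR-26a-5p, called higher than the TAA vehicle at both times, was called lower than the CCl4/DEX vehicle at both. Depth limits members with few vehicle reads, since 1 read in vehicle stands for 0.00302% of that library. No paired analysis was possible because each TAA group has 1 library and the numbered ANIT samples have 1 column per group.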
